A study of Mus musculus with 9 samples.

Results

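The collagens are the family of triple-helical proteins that make up most of the extracellular matrix around muscle fibres. Every probe set naming a single gene whose symbol has the form Col, number, a, number was taken, which gave 46 probe sets for 44 genes among the 19938 genes of the table. Col6a5 and Col6a6 had 2 probe sets, and the one with the higher mean over all arrays stood for the gene. All 44 symbols code for collagen chains, and 44 of 44 passed the filter on low values. By structure 11 are fibrillar, 9 belong to basement membranes, 6 form the beaded filaments of type VI, 3 form short chain networks, 9 are fibril-associated, 4 are transmembrane and 2 are other chains.

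The cells were mouse primary myoblasts, the dividing precursors of skeletal muscle, from wild type Balb/c mice, and no transgene or drug is named. Affymetrix arrays measured 3 groups of 3 samples each, namely myoblasts still cycling (day 0), myotubes of day 2 and myotubes of day 5. Differentiating medium is named for the myotubes in the sample titles alone, since every sample carries one growth protocol with serum and FGF. The labels do not say whether replicates were separate cultures or animals, so the spread between replicates may be technical.

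Collagen chains assemble in threes in the endoplasmic reticulum, are hydroxylated and glycosylated there, and are secreted. Fibrillar collagens are then trimmed at their ends and cross-linked into fibrils, whereas type IV chains form the sheet-like network of the basement membrane that coats each muscle fibre. In muscle tissue interstitial fibroblasts make much of the fibrillar and type VI collagen, and myogenic cells also make basement membrane components.

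Values are log2 expression values, so a log2 fold change (log2FC) of 1 is a 2-fold change. The authors normalized each time point apart, so each log2FC is given first as deposited and then on a common scale, on which all 9 arrays were brought to one distribution. The common scale moved the median of all 16582 genes tested from -0.01 to 0.09 at day 2 and from -0.37 to 0.17 at day 5, each against cycling myoblasts. Arrays of one time point had a Pearson r of 0.99 to 0.997 across probe sets, against 0.902 to 0.967 between time points. All 7 myoblast markers and all 8 myotube markers measured lay above the array median at every time point. The myotube markers summed, on the linear scale, to 3650 to 4140 in cycling myoblasts, 21800 at day 2 and 15900 to 16400 at day 5.

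Of the 44 collagens 8 changed at least 2-fold on both scales in at least 1 comparison. By day 2 Col3a1, Col5a2, Col4a1, Col4a2 and Col18a1 had fallen and Col19a1 had risen. By day 5 Col8a1 and Col12a1 were also lower than in cycling myoblasts, and no collagen was higher on both scales. The count at day 2 was 5 of 44 lower (11.4%) and 1 of 44 higher (2.27%), and among all genes tested 8.41% were lower and 6.04% higher. At day 5 it was 7 of 44 lower (15.9%) and 0 of 44 higher, beside 12.3% and 4.44% of all genes. From day 2 to day 5 only Col8a1 of the 44 fell on both scales (2.27%, beside 3.67% of all genes) and none rose (beside 0.766%). These shares lie near those of all genes, so the changes described here are those of single chains and not of the family as a whole. Both later time points are compared with the same cycling arrays, so the 2 sets of falls are not independent of each other.

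A gene was counted as changed where limma's Benjamini-Hochberg adjusted p over all genes was under 0.05 and the log2FC at least 1 on both scales. Among the 8 genes the largest limma adjusted p on either scale was 3.14e-09 for a change called at day 2, 4.66e-07 at day 5 and 2.48e-05 from day 2 to day 5. In 98 of 132 combinations of collagen and time point the 3 arrays held the same value within 1e-06, and the highest SD over 3 replicates, that of Col8a1 at day 5, was 0.19 in the deposited values and 0.22 on the common scale. The spread behind these p-values is therefore near 0 for many genes. With so small a spread, time points can fail to overlap at any size of change, as in Col1a1 and Col5a1, which stayed under 2-fold. A lack of overlap, where it is given below, therefore adds no support to a change. Where no collagen was called higher, limma's unadjusted p was under 0.05 with a higher value on both scales for 14 of 44 at day 5 (29.7% of all genes tested) and for 8 of 44 from day 2 to day 5 (16.2% of all genes).

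**Figure D1:**
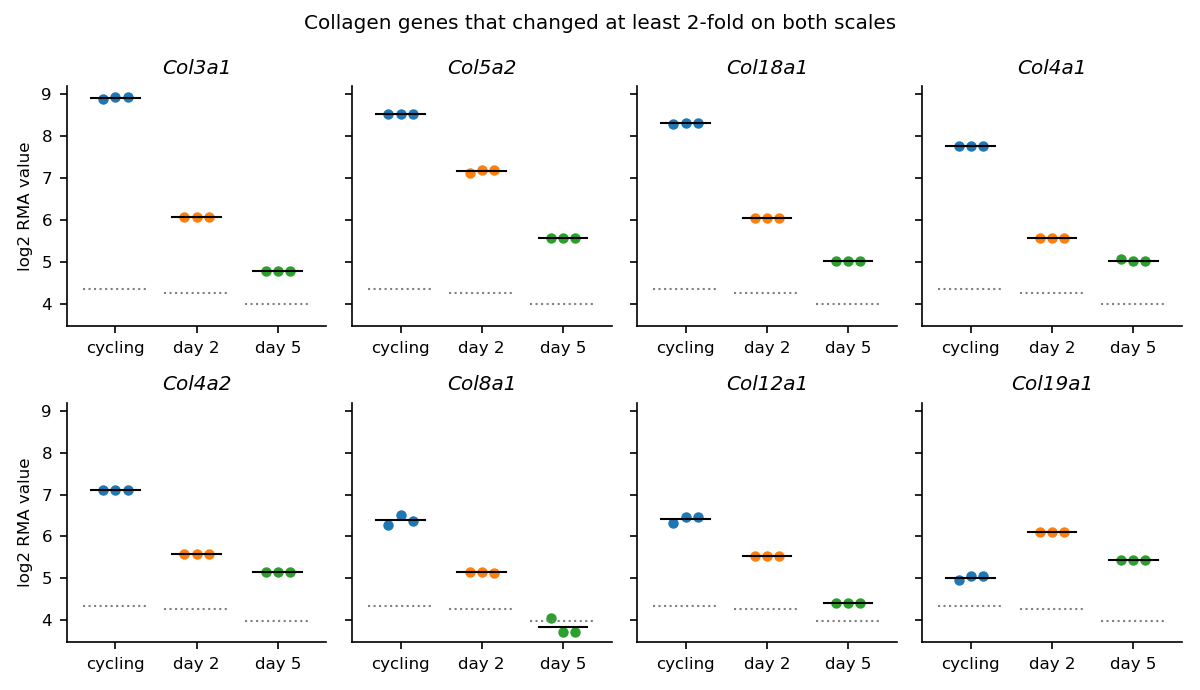
Log2 RMA values as deposited (vertical axis) of the 8 collagen genes that changed at least 2-fold on both scales, on each of 3 arrays in cycling myoblasts, day 2 and day 5 myotubes. Points are arrays, black lines are means and dotted lines are array medians. Col3a1 drops from a mean of 8.92 to 4.77, while Col19a1 peaks at day 2 at 6.11.

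Type III collagen, coded by Col3a1 alone, forms thin fibrils beside type I and gave the largest fall of the family. Its values were 8.90, 8.94 and 8.94 on the 3 arrays of cycling myoblasts, 6.06 on all 3 at day 2 and 4.77 on all 3 at day 5. Every array of a later time point thus lay below every array of an earlier one. At day 5 Col1a2, Col5a3, Col6a6 and Col8a2 also read 4.77 on all 3 arrays, so the exact size of this fall is uncertain. The log2FC was -2.87 and -2.67 at day 2 and -4.15 and -3.41 at day 5 (SE 0.011 as deposited). Between day 2 and day 5 it was -1.28 and -0.74, which is 2-fold as deposited alone. In these bulk samples fewer cells that express a gene and less RNA per cell cannot be told apart.

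The start region of Col3a1 is shown because it belongs to the chain that fell most, with that of Col19a1, the single chain that rose. Sequences are from RefSeq on GRCm38.p6, 250 bases before to 50 after the annotated start, 5′ to 3′ on the gene's strand, and the promoter table held a window for 35 of the 44 genes. Of the 8 changed genes 6 had one, and Col5a2 and Col12a1 had none. Capitals mark each CANNTG, the E-box to which myogenic factors such as MyoD can bind, searched on both strands. Col3a1 lies at chr1:45311288-45311587, plus strand, and Col19a1 at chr1:24587388-24587687, minus strand.
Col3a1: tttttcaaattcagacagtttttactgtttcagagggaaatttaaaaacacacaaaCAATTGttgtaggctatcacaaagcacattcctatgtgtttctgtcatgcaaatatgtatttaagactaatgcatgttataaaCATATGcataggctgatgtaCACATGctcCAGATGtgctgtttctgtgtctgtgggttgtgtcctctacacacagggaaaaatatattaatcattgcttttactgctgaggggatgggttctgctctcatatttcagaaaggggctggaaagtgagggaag
Col19a1: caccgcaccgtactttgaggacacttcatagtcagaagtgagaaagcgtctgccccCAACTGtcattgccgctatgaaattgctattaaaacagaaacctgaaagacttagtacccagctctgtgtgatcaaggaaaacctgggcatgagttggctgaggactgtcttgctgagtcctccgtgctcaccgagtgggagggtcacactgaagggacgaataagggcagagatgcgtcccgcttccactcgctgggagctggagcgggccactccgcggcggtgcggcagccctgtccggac
The window of Col3a1 holds 4 E-boxes and that of Col19a1 holds 1. An E-box occurs in 72.3% of all 32851 windows of this length and in 20 of the 38 collagen windows (52.6%). The TATA box TATAAA occurs in 1 copy in the Col3a1 window and in none for Col19a1, and in 13.6% of all windows. A match says only that these letters are present.

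Col5a2 codes for a chain of type V collagen, which sits inside type I fibrils and limits their diameter. It read 8.53, 8.54 and 8.54 in cycling myoblasts, 7.13, 7.20 and 7.20 at day 2 and 5.58 on all 3 arrays at day 5. The groups did not overlap, which was also so for chains under 2-fold such as Col1a1. The log2FC was -1.36 and -1.22 at day 2 (SE 0.019 as deposited), -2.95 and -2.11 at day 5, and -1.60 and -0.89 between the later time points.

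The partner chain Col5a1, which the common type V molecule contains together with Col5a2, was 6.06 on all 3 cycling arrays, 5.53 on all 3 at day 2 and 5.19 on all 3 at day 5. Its log2FC was -0.53 and -0.17 at day 2 and -0.87 and 0.04 at day 5, so it was under 2-fold and its direction at day 5 turned with the scale. Col5a3, a less widespread type V chain, was 5.00, 5.27 and 4.77 on all 3 arrays of the respective time points. Its log2FC was 0.26 and 0.51 at day 2 and -0.23 and 0.51 at day 5. Of the 3 type V chains, therefore, Col5a2 alone met the 2-fold limit on both scales. The difference between the chains was not tested.

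Type I collagen, the main fibrillar collagen of connective tissue, is built from the products of Col1a1 and Col1a2. Col1a1 was 5.35 on all 3 cycling arrays, 5.27 on all 3 at day 2 and 4.96 on all 3 at day 5. Col1a2 was 5.64 on all 3 cycling arrays, 5.33, 5.35 and 5.33 at day 2 and 4.77 on all 3 at day 5. Neither gene reached 2-fold on either scale. For Col1a1 the log2FC was -0.08 and 0.23 at day 2 and -0.39 and 0.44 at day 5, and for Col1a2 -0.30 and 0.04 at day 2 and -0.87 and -0.03 at day 5. The decline of both genes as deposited thus disappeared or turned on the common scale.

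The other fibrillar chains are Col2a1, Col11a1 and Col11a2, which are typical of cartilage, and Col24a1 and Col27a1. None changed 2-fold on either scale at day 2 or day 5. The median log2FC of the 11 fibrillar genes was -0.17 and 0.15 at day 2 and -0.23 and 0.44 at day 5, beside -0.01 and 0.09, and -0.37 and 0.17, over all genes tested. Col3a1 and Col5a2 were the only fibrillar members below -1 on either scale at these times.

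**Figure D2:**
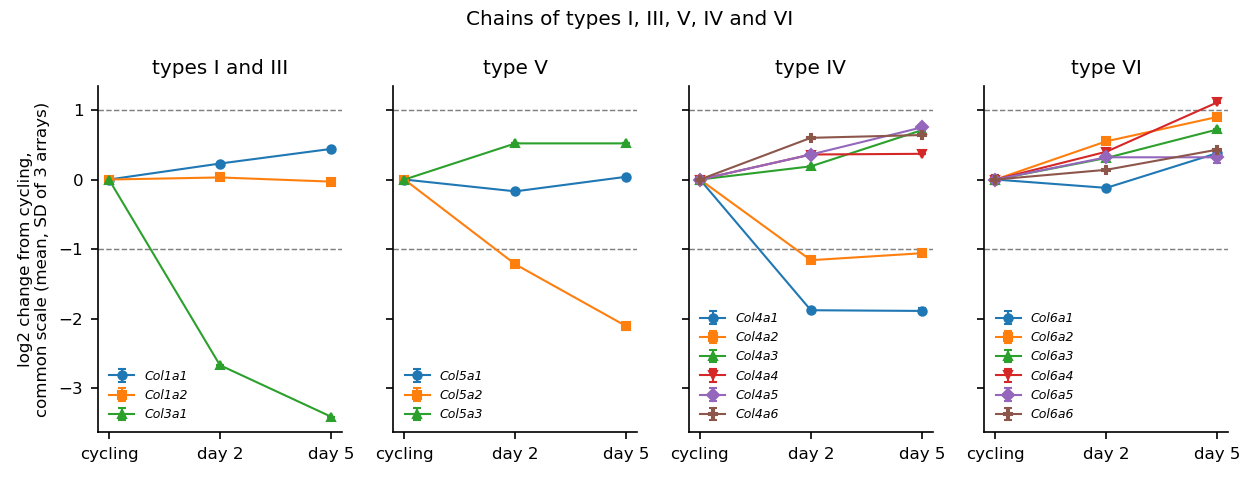
Change of each chain from its mean in cycling myoblasts on the common scale (vertical axis, log2) at the 3 time points (horizontal axis), for types I and III, V, IV and VI. Points are means of 3 arrays, bars the SD of each time point and dashed lines 2-fold. Col3a1, Col5a2, Col4a1 and Col4a2 go below -1 and the other chains of these types stay above it.

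Type IV collagen is the network of the basement membrane, and its widespread molecule consists of the products of Col4a1 and Col4a2. Col4a1 was 7.77 on all 3 cycling arrays, 5.58 on all 3 at day 2 and 5.07, 5.01 and 5.01 at day 5. Col4a2 was 7.11 on all 3 cycling arrays, 5.58 on all 3 at day 2 and 5.15 on all 3 at day 5. In the deposited values neither gene's time points overlapped, but on the common scale Col4a1 had near equal means of 5.52 at day 2 and 5.51 at day 5. The log2FC of Col4a1 was -2.19 and -1.88 at day 2 and -2.73 and -1.88 at day 5 (SE 0.015 as deposited). For Col4a2 it was -1.53 and -1.16 at day 2 and -1.96 and -1.05 at day 5. From day 2 to day 5 the common scale left the pair nearly level, at -0.01 for Col4a1 and 0.11 for Col4a2, whereas the deposited values were -0.55 and -0.44.

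The pair is shown because both members fell and their starts lie head to head on chromosome 8. The windows are chr8:11312777-11313076 on the minus strand for Col4a1 and chr8:11312555-11312854 on the plus strand for Col4a2, from the same RefSeq table. Capitals mark the 78 bases that the windows share, read on opposite strands.
Col4a1: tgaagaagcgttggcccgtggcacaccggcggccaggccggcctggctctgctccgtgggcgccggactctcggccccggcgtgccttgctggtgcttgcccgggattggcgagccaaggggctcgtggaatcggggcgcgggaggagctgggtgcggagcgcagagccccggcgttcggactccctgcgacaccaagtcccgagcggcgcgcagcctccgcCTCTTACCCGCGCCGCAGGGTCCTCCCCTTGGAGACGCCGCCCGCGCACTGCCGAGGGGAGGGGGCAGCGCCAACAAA
Col4a2: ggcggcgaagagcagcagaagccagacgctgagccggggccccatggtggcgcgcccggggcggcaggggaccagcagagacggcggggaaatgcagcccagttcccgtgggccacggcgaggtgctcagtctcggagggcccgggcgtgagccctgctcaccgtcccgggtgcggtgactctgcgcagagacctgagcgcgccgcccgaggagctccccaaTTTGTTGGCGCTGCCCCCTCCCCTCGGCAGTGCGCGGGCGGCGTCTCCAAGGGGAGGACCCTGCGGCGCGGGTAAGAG
The annotated starts, at 11312826 for Col4a1 and 11312805 for Col4a2, span 22 bases. G and C made up 74% of the Col4a1 window and 73.7% of the Col4a2 window, against 37.7% for Col3a1. Neither type IV window holds an E-box or a TATA box, and both hold the CCAAT box CCAAT and the GC box GGGCGG, found on either strand in 37.4% and 35.7% of all windows.

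The remaining type IV chains form molecules of restricted tissues such as the kidney filter, and none of the 4 changed 2-fold on either scale. Col4a3 was 4.23, 4.37 and 4.46 and Col4a5 4.26, 4.53 and 4.50 on all 3 arrays of the respective time points. Col4a4 was 4.16, 4.05 and 4.05 in cycling myoblasts, 4.41 on all 3 arrays at day 2 and 4.10 on all 3 at day 5. Col4a6 was 3.59, 4.26 and 4.00 on all 3 arrays of each time point. These 4 genes lay below the array median on every cycling array, and the table holds no measure of background to set them against. At day 2 the log2FC was 0.14 and 0.20 for Col4a3, 0.32 and 0.36 for Col4a4, 0.27 and 0.36 for Col4a5 and 0.67 and 0.60 for Col4a6. At day 5 it was 0.23 and 0.71 for Col4a3, 0.01 and 0.37 for Col4a4, 0.25 and 0.76 for Col4a5 and 0.41 and 0.65 for Col4a6. All 4 thus had higher means than in cycling myoblasts on both scales, by less than 2-fold, except that Col4a4 was level as deposited at day 5. That 0.01 had a limma adjusted p of 0.651, and the day 5 value of 4.10 lay below the 4.16 of 1 cycling array.

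Col18a1, a basement membrane collagen from whose end endostatin is cut, fell as well. It was 8.30, 8.32 and 8.32 in cycling myoblasts, 6.04 on all 3 arrays at day 2 and 5.01 on all 3 at day 5, again with no overlap. The log2FC was -2.27 and -2.04 at day 2 (SE 0.0064 as deposited) and -3.30 and -2.49 at day 5. Col15a1, its closest relative, which is found in the basement membranes of muscle and capillaries, had a log2FC of 0.13 and 0.23 at day 2 and 0.13 and 0.66 at day 5. Col7a1, the chain of the anchoring fibrils of skin, had -0.06 and 0.23 at day 2 and -0.23 and 0.57 at day 5. Among the 9 basement membrane genes 3 thus fell at least 2-fold at each of the later times (33.3%, beside 8.41% of all genes at day 2 and 12.3% at day 5) and 0 rose by that rule. At limma's unadjusted p under 0.05, with no limit on size, 5 of 9 were higher on both scales at day 2 and 4 of 9 at day 5. By that rule 7110 of all 16582 genes tested were higher at day 2 and 4926 (29.7%) at day 5. Their median log2FC was 0.13 and 0.23 at day 2 and 0.01 and 0.57 at day 5.

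Type VI collagen forms beaded filaments next to the basement membrane, and mutations in Col6a1, Col6a2 and Col6a3 cause muscular dystrophies in people. None of its 6 genes changed 2-fold on both scales in any comparison. Col6a1 was 5.99 on all 3 cycling arrays, 5.51 on all 3 at day 2 and 5.45, 5.45 and 5.39 at day 5, with a log2FC of -0.48 and -0.13 at day 2 and -0.55 and 0.38 at day 5. Its gene neighbour Col6a2 was 4.57, 4.96 and 4.82 on all 3 arrays of the respective time points, with 0.39 and 0.56 at day 2 and 0.25 and 0.90 at day 5. Col6a3 was 3.99, 4.26 and 4.30, with 0.28 and 0.31 at day 2 and 0.31 and 0.72 at day 5. Col6a3 lay below the array median in cycling myoblasts and at day 2.

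The 3 other type VI genes, Col6a4, Col6a5 and Col6a6, code for longer chains that can take the place of the product of Col6a3. Col6a4 was 3.95 on all 3 cycling arrays, 4.30, 4.36 and 4.36 at day 2 and 4.59 on all 3 at day 5. Its log2FC was 0.38 and 0.40 at day 2 and 0.64 and 1.10 at day 5, and so passed 2-fold at day 5 on the common scale alone. Col6a5 was 4.83, 4.67 and 4.67 in cycling myoblasts, 4.85 on all 3 arrays at day 2 and 4.50, 4.49 and 4.37 at day 5, a log2FC of 0.13 and 0.32, then -0.27 and 0.32. Col6a6 was 5.19, 5.05 and 5.05, then 4.96 on all 3 and 4.77 on all 3, a log2FC of -0.13 and 0.14, then -0.32 and 0.43. The second probe set of these last genes did not follow the first at day 5 as deposited, at 0.30 for Col6a5 and 0.14 for Col6a6, whereas on the common scale its 0.33 and 0.35 lay near the 0.32 and 0.43 of the first.

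**Figure D3:**
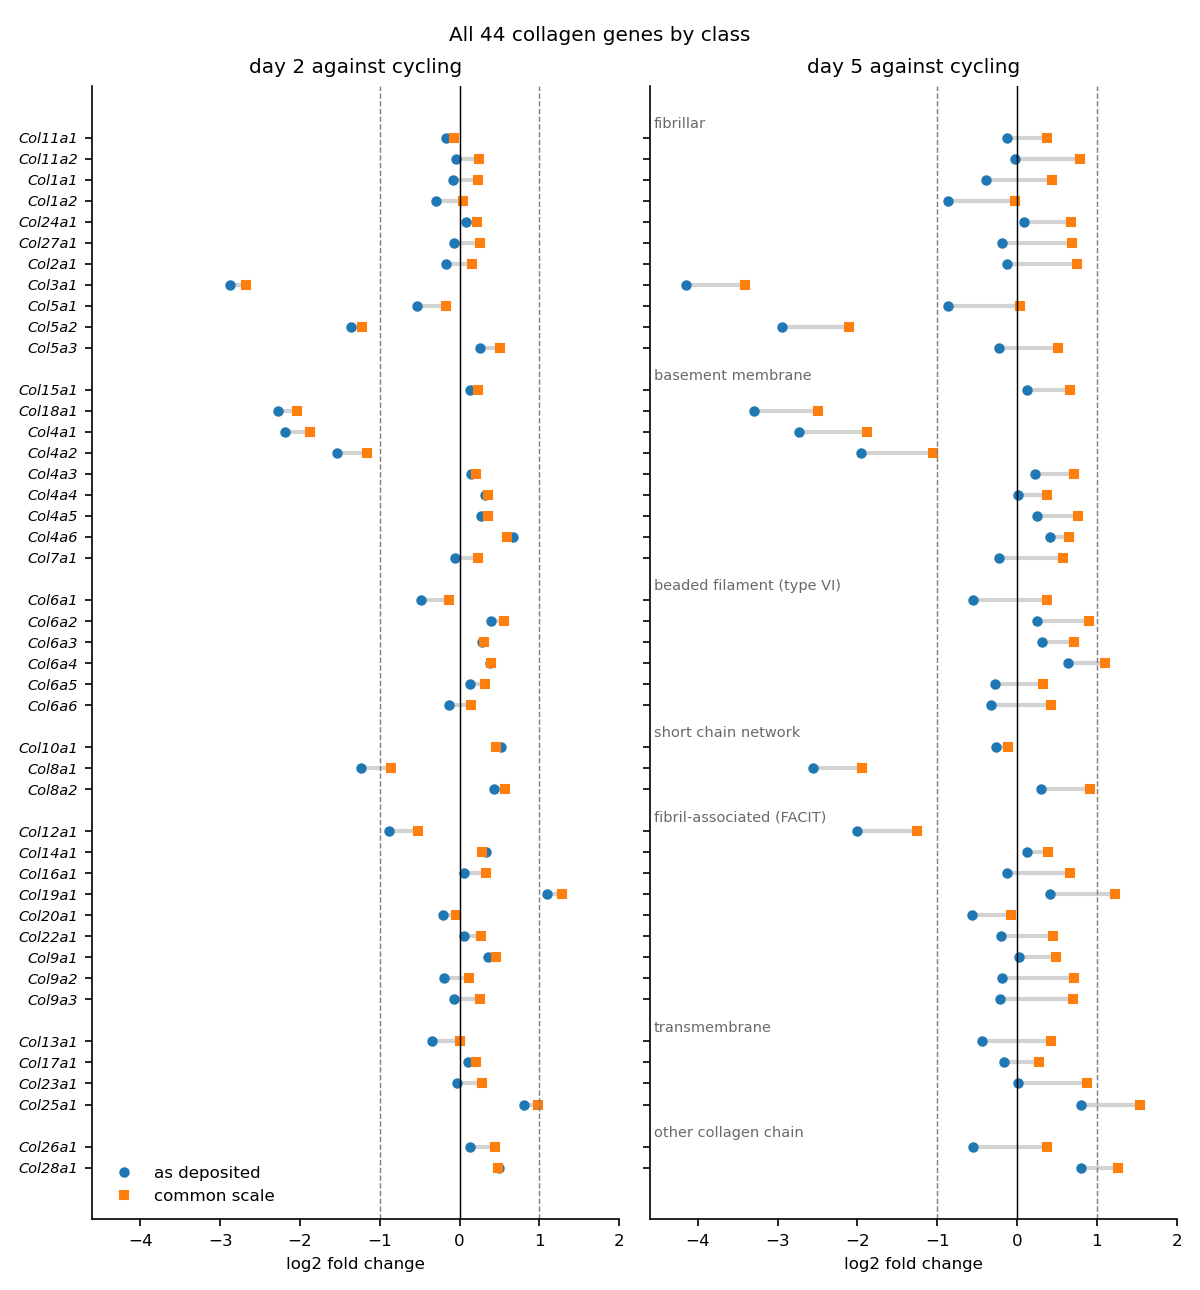
Log2FC against cycling myoblasts (horizontal axis) of all 44 collagen genes, grouped by class, at day 2 on the left and day 5 on the right. Circles are deposited values, squares the common scale, and dashed lines mark 2-fold. The bars joining the scales are longer at day 5, where many members lie on both sides of 0.

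Col8a1, a short chain collagen found around blood vessels, was 6.27, 6.51 and 6.38 in cycling myoblasts, 5.15, 5.15 and 5.13 at day 2 and 4.06, 3.73 and 3.73 at day 5. Each later group lay wholly below the earlier one. The log2FC was -1.24 and -0.86 at day 2, so 2-fold as deposited alone, and -2.55 and -1.94 at day 5. Between day 2 and day 5 it was -1.31 and -1.08 (SE 0.10 as deposited). At day 5 only 1 of 3 arrays had Col8a1 above the array median, so the exact size of that fall is uncertain. Col8a2, the related chain, had a log2FC of 0.43 and 0.57 at day 2 and 0.30 and 0.92 at day 5. Col10a1, of growth plate cartilage, lay below the array median on all 9 arrays.

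Col12a1 codes for a fibril-associated collagen that binds to type I fibrils and whose loss causes a myopathy. It was 6.33, 6.47 and 6.47 in cycling myoblasts, 5.54 on all 3 arrays at day 2 and 4.41 on all 3 at day 5. The decline passed at day 5, at -2.01 and -1.25 (SE 0.039 as deposited), and not at day 2, at -0.88 and -0.52.

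Col19a1, another fibril-associated collagen, known for its expression in developing muscle, went the other way. It was 4.97, 5.05 and 5.05 in cycling myoblasts, 6.11 on all 3 arrays at day 2 and 5.44 on all 3 at day 5. Day 2 was the highest group and no groups overlapped. The log2FC at day 2 was 1.09 and 1.28 (SE 0.021 as deposited). At day 5 it was 0.41 and 1.23, so the common scale alone keeps it 2-fold above cycling myoblasts, and from day 2 to day 5 it was -0.68 and -0.05. Its gene neighbour Col9a1, a cartilage chain, had 0.36 and 0.46 at day 2 and 0.02 and 0.49 at day 5.

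The remaining fibril-associated genes, Col9a1, Col9a2, Col9a3, Col14a1, Col16a1, Col20a1 and Col22a1, stayed under 2-fold on both scales at both times. Col22a1, a collagen of the junction between muscle and tendon, had a log2FC of 0.05 and 0.27 at day 2 and -0.20 and 0.45 at day 5.

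Transmembrane collagens are anchored in the plasma membrane, and Col25a1, which muscle fibres need to attract motor axons, came closest to a rise. It was 4.65 on all 3 cycling arrays, 5.47 on all 3 at day 2 and 5.40, 5.49 and 5.46 at day 5. The log2FC was 0.81 and 0.98 at day 2 and 0.80 and 1.54 at day 5, which passes 2-fold on the common scale alone at day 5. Col13a1, a collagen of the neuromuscular junction, had -0.34 and 0.00 at day 2 and -0.44 and 0.43 at day 5. Col17a1 and Col23a1 stayed within 1 on both scales. Of the other chains, Col28a1 had 0.49 and 0.48 at day 2 and 0.80 and 1.26 at day 5, and Col26a1 had 0.13 and 0.45, then -0.55 and 0.37.

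On the common scale alone 4 collagens were thus 2-fold higher at day 5: Col6a4, Col19a1, Col25a1 and Col28a1. Of these, Col6a4 and Col28a1 lay below the array median on all 3 cycling arrays, so the exact size of their rise is uncertain. Over all genes tested the share higher was 11.8% on that scale alone. As deposited alone 5 collagens fell from day 2 to day 5 (beside 15.4% of all genes): Col3a1, Col5a2, Col8a1, Col12a1 and Col18a1. At day 5 against cycling myoblasts 18 of 44 collagens were lower as deposited and higher on the common scale, each with a limma adjusted p under 0.05 (40.9%, beside 22.6% of all genes). For these 18 genes the direction of change is not settled. The median log2FC of the 44 was 0.01 and 0.24 at day 2 and -0.19 and 0.47 at day 5.

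Genes that make, trim, cross-link and bind collagens were taken from a list of 65, of which 60 were measured and 55 tested. Fkbp10, Adamts2, Loxl2, Fbn1 and Gp6 were not analysed here. On both scales 2 of 55 rose (3.64%) and 8 fell (14.5%) at day 2, beside 6.04% and 8.41% of all genes. At day 5, 3 rose (5.45%) and 16 fell (29.1%), beside 4.44% and 12.3%. From day 2 to day 5, 1 rose (1.82%) and 9 fell (16.4%), beside 0.766% and 3.67%.

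Propeptide removal, which frees fibrillar collagens to assemble, had 7 members tested, of which 0 rose at either time. At day 2, 2 fell (28.6%, beside 8.41% of all genes) and at day 5, 4 fell (57.1%, beside 12.3%). Pcolce2, an enhancer of the C-proteinase, was 7.89, 7.95 and 7.95 in cycling myoblasts, 4.41 on all 3 arrays at day 2 and 2.94 on all 3 at day 5. Its log2FC was -3.52 and -3.23 at day 2 and -4.99 and -4.57 at day 5, where its level lay under the filter value of 3.1 to 3.13, so that the later size is uncertain. Bmp1, the C-proteinase itself, was 7.16, 5.54 and 4.56 on all 3 arrays of the respective time points. It had -1.62 and -1.25 at day 2 and -2.59 and -1.79 at day 5. Adamts14, which removes the N-propeptide, had -1.11 and -0.84 at day 2 and -2.75 and -1.91 at day 5.

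Of 17 tested genes of folding and modification, 1 fell and 1 rose at day 2 (5.88% each, beside 8.41% and 6.04% of all genes). At day 5, 4 fell (23.5%, beside 12.3%) and 3 rose (17.6%, beside 4.44%). Crtap, part of the prolyl 3-hydroxylation complex, was 8.18, 6.13 and 5.70 on all 3 arrays of each time point, with -2.04 and -1.81 at day 2 and -2.48 and -1.59 at day 5. Sparc, a collagen-binding matrix protein, was 10.97, 11.13 and 11.09 in cycling myoblasts, 10.12 on all 3 arrays at day 2 and 8.58 on all 3 at day 5. It had -0.94 and -0.87 at day 2 and -2.48 and -1.80 at day 5. Tmem38b, an endoplasmic reticulum cation channel whose loss disturbs collagen synthesis, rose with 2.50 and 2.76 at day 2 and 2.01 and 2.86 at day 5. The other risers at day 5, named after their values were seen, were the prolyl hydroxylases P4ha2 (1.43 and 2.36) and P3h2 (1.14 and 1.79). Members of this list thus went in opposite directions.

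Of 4 tested cross-linking genes 1 fell at each time (25.0%, beside 8.41% of all genes at day 2 and 12.3% at day 5). The gene that fell was Loxl3, a lysyl oxidase relative, with -2.36 and -2.02 at day 2 and -2.60 and -1.93 at day 5, and 0 rose. Of 7 genes of procollagen export 0 changed at day 2 on both scales and 1 fell at day 5 (14.3%, beside 12.3%). At limma's unadjusted p under 0.05, 2 of the 7 were higher and 2 lower on both scales at day 2. Of all 16582 genes tested 7110 were higher and 6204 lower at day 2 by that unadjusted rule. Of 9 collagen receptors 1 fell at day 2 (11.1%, beside 8.41% of all genes) and 2 at day 5 (22.2%, beside 12.3%), and 0 rose. Ddr2, a receptor tyrosine kinase for fibrillar collagens, was 8.38, 8.47 and 8.38 in cycling myoblasts, 7.04 on all 3 arrays at day 2 and 5.77 on all 3 at day 5. It had -1.38 and -1.21 at day 2 and -2.64 and -1.77 at day 5.

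Of 11 tested matrix partners of fibrils 3 fell (27.3%, beside 8.41% of all genes) and 1 rose (9.09%, beside 6.04%) at day 2. At day 5, 4 fell (36.4%, beside 12.3%) and 0 rose (beside 4.44%). Tnc, tenascin C, was 8.82, 8.93 and 8.90 in cycling myoblasts, 5.58 on all 3 arrays at day 2 and 3.58 on all 3 at day 5, with -3.30 and -3.07, then -5.30 and -4.86. Its day 5 level lay below the array median. Fn1, fibronectin, on which fibrils are laid down, was 9.77, 9.98 and 9.83, then 7.94, 7.98 and 7.94, then 5.31, 5.48 and 5.44. It had -1.91 and -1.76 at day 2 and -4.45 and -3.63 at day 5. Thbs1, thrombospondin, had -1.18 and -1.06, then -3.46 and -2.62.

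Ogn, osteoglycin, a small leucine-rich proteoglycan that binds fibrils, peaked at day 2. It was 6.48, 6.69 and 6.55 in cycling myoblasts, 8.86, 8.86 and 8.89 at day 2 and 5.89, 6.28 and 6.45 at day 5. The log2FC was 2.30 and 2.52 at day 2, -0.36 and 0.62 at day 5 against cycling myoblasts, and -2.66 and -1.89 between the later times.

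**Figure D4:**
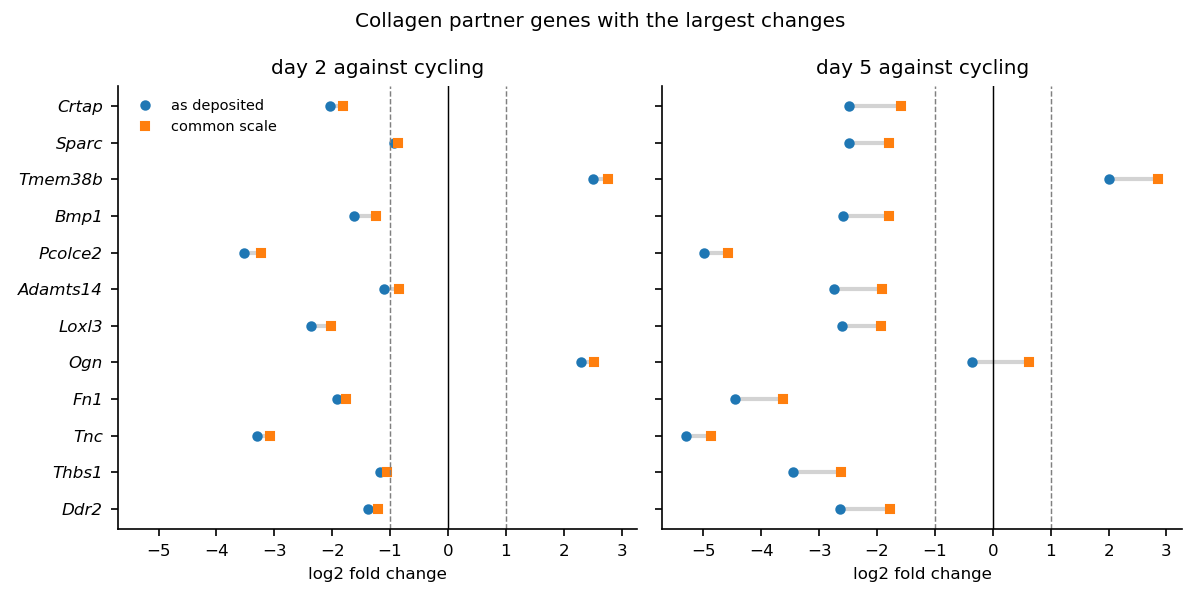
Log2FC against cycling myoblasts (horizontal axis) at day 2 and day 5 of the 12 collagen partner genes with the largest changes. Circles are deposited values, squares the common scale, and dashed lines mark 2-fold. Tmem38b is above 2-fold at both times, Ogn at day 2, and the other 10 genes fall below -1 on both scales at day 5.

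Markers of other cell types that a muscle culture can hold were read beside the falls. Smooth muscle and pericyte markers, 7 of 7 measured, summed on the linear scale to 317 to 319 in cycling myoblasts, 151 to 153 at day 2 and 113 at day 5. Within that list Rgs5 read 6.65 on the cycling arrays, 2.64 at day 2 and 2.66 at day 5, and Notch3, which myoblasts also express, had means of 7.10, 5.62 and 4.48. These 2 were the members that fell on both scales against cycling myoblasts, where the other 5 stayed unchanged by that rule. Some of the 5 had higher values. Pdgfrb had a log2FC of 0.92 and 1.00 at day 2 and -0.50 and -0.23 at day 5. From day 2 to day 5 Pdgfrb fell on both scales, at -1.42 and -1.23. Cnn1 had 0.65 and 0.48, then 0.88 and 1.06, and Cspg4 0.25 and 0.29, then 0.50 and 1.00. The part of smooth muscle cells and pericytes in the falls of collagens was not tested. Fibroblast markers, 11 of 12 measured, summed to 174 to 179, 629 to 655 and 204 to 207, and Dpep1, with means of 5.20, 8.95 and 5.93, was the highest member at each time. Of the 11, 3 lay above the array median in cycling myoblasts, 2 did so at day 2 and 5 did so at day 5. Pdgfra, a defining fibroblast marker, was 4.29, 3.67 and 4.36 on all 3 arrays of the respective time points, a log2FC of -0.62 on both scales at day 2 and of 0.07 and 0.56 at day 5, and Lum and Dpt did not pass the filter. The part of fibroblasts in the changes of collagens was not tested. Endothelial markers summed to between 85.7 and 92.3 and macrophage markers to between 68.6 and 90.4 over all 9 arrays. Tenocyte markers summed to 327 to 356, 465 to 478 and 274 to 276 at the respective time points, with Scx, at means of 8.03, 8.71 and 7.81, the highest of 5. Mkx, a tendon transcription factor, fell at day 2 with a log2FC of -1.76 and -1.51 and had -1.48 and -0.84 at day 5. Its part in the falls was not tested.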

How the data were processed

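Total RNA of 9 mouse primary myoblast and myotube samples was hybridised to Affymetrix arrays. The authors' deposited values are log2 values from RMA, run for each replicate set, per the series' design text and the tools that the labels list. Which RMA version was used is not given here, and the values show that each time point was normalized by itself, so time point and normalization set cannot be told apart. The number of arrays limits the precision. Members and gene lists were chosen with earlier results of these data known.

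Of 35556 probe sets 21789 named 1 gene, 1621 several and 12146 none, from the platform annotation. The probe set with the highest mean stood for a gene, and 16582 of 19938 genes lay above the 30th percentile of their array on at least 3 arrays. All 44 collagens matched RefSeq (GRCm38.p6) by gene ID and 0 symbols changed. One limma 3.58.1 model in R 4.3.3 (lmFit, eBayes) was fitted to the deposited values and to values quantile-normalized over 9 arrays, with Benjamini-Hochberg adjustment over all genes, after the code was tested on simulated data. Named are the collagens that changed at least 2-fold on both scales, all chains of types I, III, IV, V and VI, and the 12 partner genes with the largest changes. Other settings were each scale alone, median centring, no filter, the mean of a gene's probe sets, trended robust eBayes, a replicate block and leaving out each array. Same-numbered arrays were not paired by the labels, and 1 of 9 such pairs had deviations correlated above 0.1. Pairs of unlike number reached 0.16.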

Additional observations from a re-analysis of the deposited data

How the results depend on the processing

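With no filter, averaged probe sets, trended and robust eBayes or a replicate block, the counts stayed at 5 collagens lower and 1 higher at day 2, 7 and 0 at day 5, and 1 and 0 from day 2 to day 5. The replicate block left all 102 named values on their side of the limits. Same-numbered arrays had deviations correlated between -0.038 and 0.11, beside -0.15 to 0.16 for unlike numbers. Of 9 arrays 4 correlated best with their own number. Leaving out each array in turn gave the same counts, from 5 to 5 and 1 to 1 at day 2, 7 to 7 and 0 to 0 at day 5, and 1 to 1 and 0 to 0 between the later times. The choice of scale moved more of them. As deposited alone 5 collagens fell from day 2 to day 5, and with median centring 3. At day 5, 4 were higher on the common scale alone and 2 with median centring. At 1.5-fold, a limit chosen after seeing the data, 3 were higher at day 2, 3 higher at day 5, and 4 lower from day 2 to day 5. Col8a1 also passed that limit as lower at day 2, at -1.24 and -0.86. The share of all genes at 1.5-fold is not given here, so these counts have no background beside them.

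Of all 16582 genes tested the common scale turned a lower value into a higher one for 1634 at day 2, 4503 at day 5 and 5923 from day 2 to day 5. Among the 44 collagens it did so for 11 at day 2, 18 at day 5 and 21 from day 2 to day 5, and turned 0 the other way. Among the named genes (chains of types I and III to VI, the changed collagens and the 12 partner genes) these were, at day 2, Col1a1 (0.23), Col1a2 (0.04) and Col6a6 (0.14), and at day 5 against cycling myoblasts, Col1a1 (0.44), Col5a1 (0.04), Col5a3 (0.51), Col6a1 (0.38), Col6a5 (0.32), Col6a6 (0.43) and Ogn (0.62). From day 2 to day 5 the named genes that turned were Col1a1 (0.21), Col4a2 (0.11), Col4a4 (0.01), Col4a5 (0.40), Col4a6 (0.05), Col5a1 (0.21), Col6a1 (0.51), Col6a2 (0.34), Col6a5 (0.00), Col6a6 (0.28), Crtap (0.21), Tmem38b (0.10) and Loxl3 (0.10). Col6a5 was level there, with a limma adjusted p of 0.934 on the common scale. With median centring Col5a3 (0.12), Col6a5 (0.08) and Col6a6 (0.03) turned at day 5, and Col4a5 (0.25), Col4a6 (0.01), Col6a1 (0.20), Col6a2 (0.14), Col6a6 (0.09) and Loxl3 (0.04) from day 2 to day 5. The mean of its probe sets turned Col6a5 (0.02) at day 5. None of these values is a 2-fold change. Signal over background is unknown, which limits statements on members near the array median.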

Other observations

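Among protein-coding genes in the RefSeq table, 8 pairs of collagen genes are direct neighbours. In 2 of the 8, Col3a1 with Col5a2 and Col4a1 with Col4a2, both members fell by day 5. In the pair Col9a1 and Col19a1 the second gene alone rose at day 2, and no member of the other 5 pairs changed on both scales at day 2 or day 5. These pairs were looked at after the values were seen, and no test was made.

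The GC box GGGCGG occurred in 23 of 38 collagen windows (60.5%) and in 35.7% of all 32851 windows, and the CCAAT box in 13 of 38 (34.2%) and 37.4%. Some genes have more than 1 window and the windows of Col4a1 and Col4a2 overlap, so the 38 are not independent.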
